A study of Mus musculus with 7 samples.

Results

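The interferon regulatory factors (IRFs) described are 8 mouse genes, Irf1, Irf2, Irf3, Irf4, Irf5, Irf7, Irf8 and Irf9, taken by their symbols from the 28666 genes of the deposited table. All 8 were among the 17461 genes that passed the filter on low counts. IRFs are transcription factors that bind DNA through a conserved N-terminal domain rich in tryptophan, and they recognize GAAA repeats such as those of the interferon-stimulated response element (ISRE). Irf3 and Irf7 start interferon transcription once kinases activate them, Irf9 forms with Stat2 a complex that answers type I interferon, and Irf4 and Irf8 bind DNA mainly with partners and set the fate of dendritic cell (DC) subsets.

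Both groups were bone marrow-derived dendritic cells (BMDCs), grown from marrow of female C57BL/6 mice of 6 to 8 weeks for 7 days with 20 ng/mL GM-CSF and 10 ng/mL IL-4. They were then co-cultured across a Transwell membrane with the murine colon cancer cell line MC38. The study's text gives 24 h of DON, a glutamine antagonist, used at 5 μM, and a legend names DMSO or DON for the same co-culture. Its text pairs DON with added glutamine in this co-culture, and DMSO with a lower glutamine level. Sorting by flow cytometry gave 3 libraries of immature and 4 of mature BMDCs, and the labels name no genetic change. For other experiments the study's legends define mature DCs as CD80+CD86+, and its statistics note speaks in general of independent biological experiments. Neither statement names this sort or these libraries, so p-values measure the spread between these libraries, which may be technical.

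The libraries held 54846746 to 67973086 counts each. Replicates differed by more than counting error in every pair. The median chi-square per gene was 17.7 to 25.6 in the pairs that include mature replicate 3 and 3.83 to 5.26 in all other pairs, so this library stood apart. The summed level of 10 DC markers was 9168 to 9807 CPM (counts scaled to a common library size, as edgeR defines them) in immature and 13102 to 18129 CPM in mature libraries, and that of 5 macrophage markers was 1403 to 1485 CPM and 276 to 308 CPM. The DC list includes Ccr7, Cd40, Cd80, Cd83 and Cd86, genes of DC maturation. Its sum therefore does not compare the DC content of the groups. For the macrophage sum, fewer macrophages and less RNA of these genes per cell cannot be told apart in sorted bulk samples. All 5 B cell markers were under 1 CPM in every library, as were 4 of 5 T cell and 3 of 4 neutrophil markers. The 7 markers of epithelial and carcinoma cells summed to 70.0 to 77.4 CPM in immature and 59.3 to 69.9 CPM in mature libraries. Most of these sums was Cdh1, with a mean of 55.24 CPM in immature and 51.45 CPM in mature libraries. Whether its RNA came from BMDCs or from MC38 cells was not tested. The 8 heart muscle genes summed to 4.91 to 5.52 CPM in immature libraries, to 26.9 CPM in mature replicate 1 and to 704 to 829 CPM in mature replicates 2 to 4.

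Promoter windows of RefSeq on build GRCm38.p6 were matched for all 8 members. The 250 bases upstream of the first start site are shown for 4 of them: Irf8 and Irf4, whose RNA changed most among the members, and Irf1 and Irf2, an activator and its antagonist that moved in opposite directions. Capitals mark matches, on either strand, to the ISRE core (GAAA, any 2 bases, GAAA), to the composite element of Ets factors and IRFs (EICE: GGAA, any 2 bases, GAAA), to the gamma-activated sequence bound by STAT dimers (GAS: TTC, any 3 bases, GAA) and to a kappa B form (GGG, any 3 bases, TTCC).
Irf8, chr8:120736108-120736357, plus strand: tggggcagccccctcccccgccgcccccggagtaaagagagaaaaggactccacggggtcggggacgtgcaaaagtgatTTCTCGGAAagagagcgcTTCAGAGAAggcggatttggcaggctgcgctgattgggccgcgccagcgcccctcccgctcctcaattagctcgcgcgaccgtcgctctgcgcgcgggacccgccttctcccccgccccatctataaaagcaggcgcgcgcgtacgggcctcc
Irf4, chr13:30748983-30749232, plus strand: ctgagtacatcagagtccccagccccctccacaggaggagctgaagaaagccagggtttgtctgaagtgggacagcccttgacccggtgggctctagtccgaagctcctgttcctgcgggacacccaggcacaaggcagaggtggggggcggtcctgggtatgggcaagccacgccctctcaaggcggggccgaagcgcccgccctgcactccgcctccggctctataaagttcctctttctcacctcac
Irf1, chr11:53769764-53770013, plus strand: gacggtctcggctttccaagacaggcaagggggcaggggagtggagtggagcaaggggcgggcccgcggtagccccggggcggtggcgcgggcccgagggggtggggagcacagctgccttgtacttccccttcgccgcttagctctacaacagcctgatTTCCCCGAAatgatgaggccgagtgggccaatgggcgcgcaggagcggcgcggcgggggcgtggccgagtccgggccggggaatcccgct
Irf2, chr8:46739495-46739744, plus strand: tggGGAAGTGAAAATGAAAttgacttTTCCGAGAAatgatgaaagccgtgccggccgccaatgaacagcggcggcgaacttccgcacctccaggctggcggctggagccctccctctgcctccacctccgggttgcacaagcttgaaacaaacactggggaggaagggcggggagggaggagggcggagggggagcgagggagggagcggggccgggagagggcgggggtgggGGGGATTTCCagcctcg
Irf8 held a pair of GAS matches, TTCTCGGAA at positions -171 to -163 and TTCAGAGAA at positions -153 to -145, counted back from the start site. Irf1 held 1 GAS match, TTCCCCGAA at positions -90 to -82. Only the kappa B form given above was searched, so other kappa B forms were not looked for in any window. Irf2 held 4 matches, an ISRE match that overlaps an EICE match, a GAS match and a kappa B match. These letters were not found in the window of Irf4, nor in those of Irf3, Irf5, Irf7 and Irf9. Both Irf9 windows lay inside the deposited Irf9 gene, with 250 and 88 bases in its annotated exons. For Irf9 the sequence upstream of the deposited gene was thus not searched. The Irf3 window had 181 bases in exons of Bcl2l12. The Irf2 window had 34 bases in exons of Gm16675 and Irf2, and its kappa B match, at positions -17 to -8, spans the start of the deposited Irf2 gene. The windows of Irf7 and Irf4 had 57 and 7 bases in exons of the gene itself. Of 32851 windows of this length, 7.02% held a GAS match, 2.98% an ISRE match, 2.30% an EICE match and 4.65% a kappa B match. A match is a description of the letters and not a bound site.

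Mature and immature BMDCs were compared gene by gene with edgeR's quasi-likelihood test on the counts of all tested genes. The study's criteria were a log2 fold change of 1 or more in either direction with a Benjamini-Hochberg adjusted p under 0.05. By the adjusted p alone, Irf1, Irf4, Irf8 and Irf9 rose and Irf2 fell in mature BMDCs, which makes 5 of 8 members where 46.1% of all tested genes passed, 23.2% higher and 22.9% lower. By both criteria 1 of 8 members was called, Irf8, where 23.1% of all tested genes were called, 13.2% higher and 9.95% lower, so this count does not exceed the background. The groups did not overlap in CPM for 6 of 8 members, 5 higher and 1 lower, against 52.1% of all tested genes, 25.4% higher and 26.7% lower. The median log2 fold change was 0.562 over the members and 0.055 over all tested genes. In sorted bulk samples, fewer cells that express a gene and less RNA per cell cannot be told apart.

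**Figure D1:**
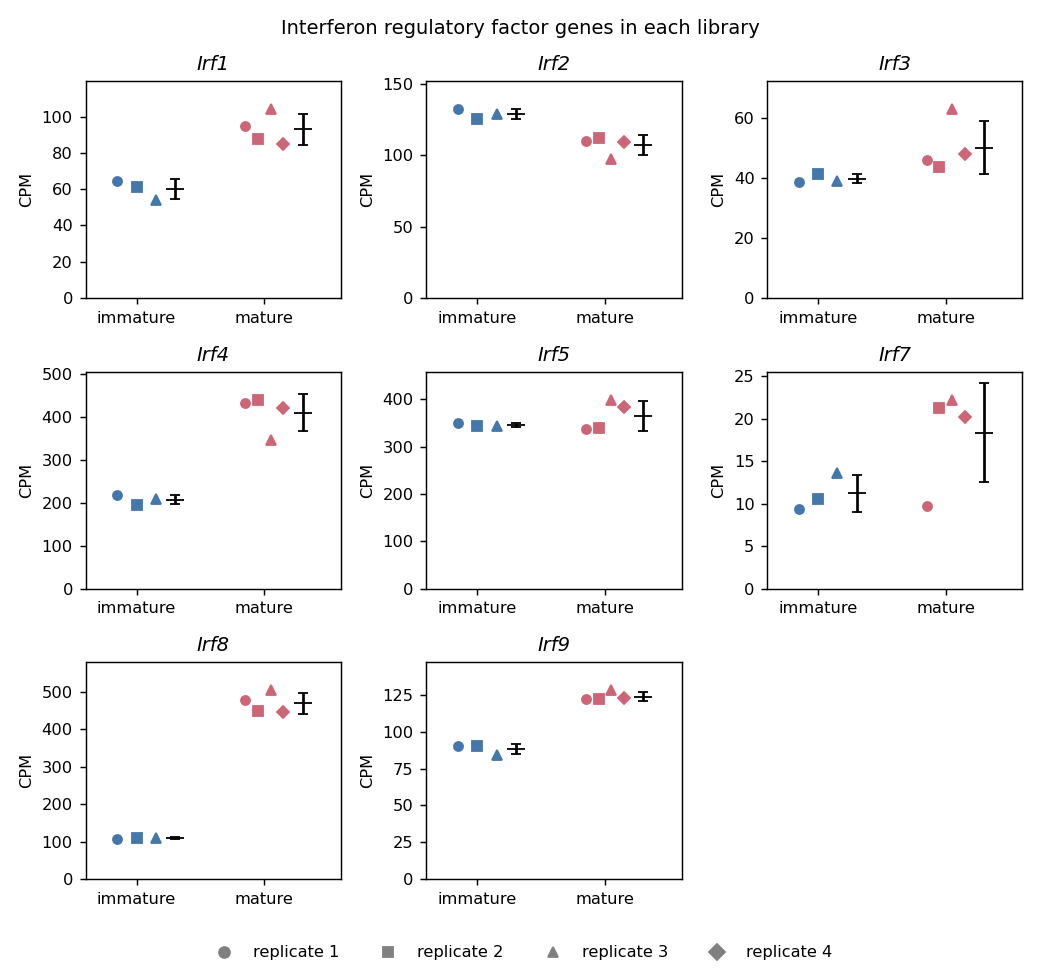
CPM (y axis) of the 8 IRF genes in 3 immature (blue) and 4 mature (red) BMDC libraries. Marker shapes give the replicate number and the black bar is the mean ± SD. Irf4 and Irf8 are higher in every mature library, and for Irf7 mature replicate 1 lies among the immature libraries.

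Irf8 (ENSMUSG00000041515, chromosome 8 from 120736358 to 120756694), which directs the development of type 1 conventional DCs and of monocytes, had the largest rise of the 8 members. Its level was 106, 109 and 111 CPM in immature replicates 1 to 3. It was 477, 448, 503 and 445 CPM in mature replicates 1 to 4, more than 4 times the immature level in each. The log2 fold change was 2.11 (± 0.082 SE, adjusted p = 4.39e-07 in edgeR), which is a 4.31-fold rise with a 95% interval of 3.79 to 4.90. Of the 17461 tested genes, 92.2% had a lower log2 fold change. Both criteria were met in each of 15 alternative analyses, with a log2 fold change of 2.06 to 2.21. Markers of plasmacytoid DCs, which also express Irf8 and Irf7, summed to 43.3 to 45.3 CPM in immature and 68.8 to 94.5 CPM in mature libraries, over the 7 of 8 that were in the table, with Cd209d and Ly6d under 1 CPM throughout. Their part in the results for Irf8 and Irf7 was not tested.

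Irf4 (ENSMUSG00000021356, chromosome 13 from 30749226 to 30766976), the close relative of Irf8 that type 2 conventional DCs and migrating DCs depend on, rose less. Immature replicates 1 to 3 had 218, 196 and 208 CPM and mature replicates 1 to 4 had 433, 440, 346 and 420 CPM. Mature replicate 3 was the lowest mature library, still above every immature one. The log2 fold change was 0.99 (± 0.10 SE, adjusted p = 7.85e-05 in edgeR), just under the criterion of 1. Without mature replicate 3 it was 1.08, past the criterion. Of 15 alternatives 9 placed Irf4 past both criteria, and all 15 gave an adjusted p under 0.05.

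The relation of these 2 genes therefore shifted between the groups. Per length, as fragments per kilobase of gene (FPKM), Irf4 exceeded Irf8 by a ratio of 2.96, 2.57 and 2.71 in immature replicates 1 to 3. In mature replicates 1 to 4 the ratio was 1.31, 1.42, 0.992 and 1.36. The groups did not overlap, and the mean log2 ratio fell from 1.46 ± 0.102 (SD, n = 3) to 0.33 ± 0.233 (SD, n = 4), a difference of -1.13 (two-sided exact permutation test, p = 0.0571, which no arrangement of these 35 can undercut). In these libraries Irf8 thus rose by more than Irf4, a difference for which this exact test cannot reach 0.05.

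Irf1 (ENSMUSG00000018899, chromosome 11 from 53770014 to 53777323) encodes an activator induced by interferon gamma, and Irf2 (ENSMUSG00000031627, chromosome 8 from 46739732 to 46847458) a factor that competes for the same sites and is known mainly as a repressor. Irf1 had 64.6, 61.3 and 54.0 CPM in immature and 94.9, 87.9, 104 and 85.1 CPM in mature libraries. Every mature library was above every immature library, a log2 fold change of 0.64 (± 0.10 SE, adjusted p = 0.00106 in edgeR). Irf2 was the single member with a negative change, with 132, 125 and 129 CPM in immature and 110, 112, 97.2 and 109 CPM in mature libraries. Its log2 fold change was -0.27 (± 0.077 SE, adjusted p = 0.0209 in edgeR). Its adjusted p was 0.0895, 0.0540, 0.0726 and 0.0533 without immature replicates 1, 2 and 3 and mature replicate 4. The log2 fold change without these libraries was -0.29 to -0.25, close to that of all libraries, with a standard error of 0.092 to 0.10 in place of 0.077. As FPKM, the ratio of Irf1 to Irf2 was 0.780 to 0.913 in immature and 1.46 to 2.00 in mature libraries, with Irf2 the higher of the pair in each immature library and Irf1 in each mature library.

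Irf9 (ENSMUSG00000002325, chromosome 14 from 55603571 to 55610030), the DNA-binding subunit of the complex with Stat2, rose with little spread. It was at 90.0, 90.0 and 84.2 CPM in immature and 122, 122, 128 and 123 CPM in mature libraries. The log2 fold change was 0.49 (± 0.07 SE, adjusted p = 0.000504 in edgeR), a 1.40-fold rise, and the 15 alternatives gave 0.46 to 0.59.

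Irf3 (ENSMUSG00000003184, chromosome 7 from 44997648 to 45002848) and Irf7 (ENSMUSG00000025498, chromosome 7 from 141262706 to 141266481) start the transcription of type I interferons, Irf3 from a constant pool and Irf7 after induction. Irf3 lay at 38.6 to 41.4 CPM when immature. The mature replicates 1 to 4 held 46.0, 43.6, 62.8 and 48.0 CPM. The groups did not overlap and mature replicate 3 was the highest, yet the adjusted p missed the threshold, with a log2 fold change of 0.33 (95% interval 0.04 to 0.63, edgeR adjusted p = 0.0659). Without mature replicate 3 the log2 fold change was smaller, at 0.23, and the adjusted p was 0.0111. Without mature replicate 2 they were 0.40 and 0.0409.

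Irf7 had 9.39, 10.6 and 13.6 CPM in immature replicates 1 to 3. Mature replicate 1, at 9.67 CPM, lay within that range, whereas mature replicates 2 to 4 had 21.2, 22.2 and 20.2 CPM. The log2 fold change over all libraries was 0.71 (95% interval 0.07 to 1.34, edgeR adjusted p = 0.0679). Without mature replicate 1 it was 0.92 (edgeR adjusted p = 0.00162). Mature replicate 1 was also the mature library with the low level of heart muscle genes given above, and the part of that difference in the result for Irf7 was not tested. The log2 CPM of Irf7 followed that of Acadm (Pearson r = 0.9768), Il1b (r = 0.9651) and Pln (r = 0.9646) most closely among 8967 other genes with a mean of at least 10 CPM. These are descriptions over 7 libraries that share the group difference, and Pln encodes the heart muscle protein phospholamban.

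Irf5 (ENSMUSG00000029771, chromosome 6 from 29526625 to 29541871), which drives inflammatory cytokine genes downstream of Toll-like receptors, was the member with the highest FPKM in both groups. By mean CPM Irf5 led in immature libraries only. In mature libraries its mean of 364 CPM was below Irf8 with 468 CPM and Irf4 with 410 CPM. Irf5 had 343 to 350 CPM in immature and 337, 339, 399 and 383 CPM in mature libraries, with overlapping groups. The log2 fold change was 0.08 (95% interval -0.12 to 0.27, edgeR adjusted p = 0.510), so a change of Irf5 beyond 1.21-fold upward lay outside the interval.

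**Figure D2:**
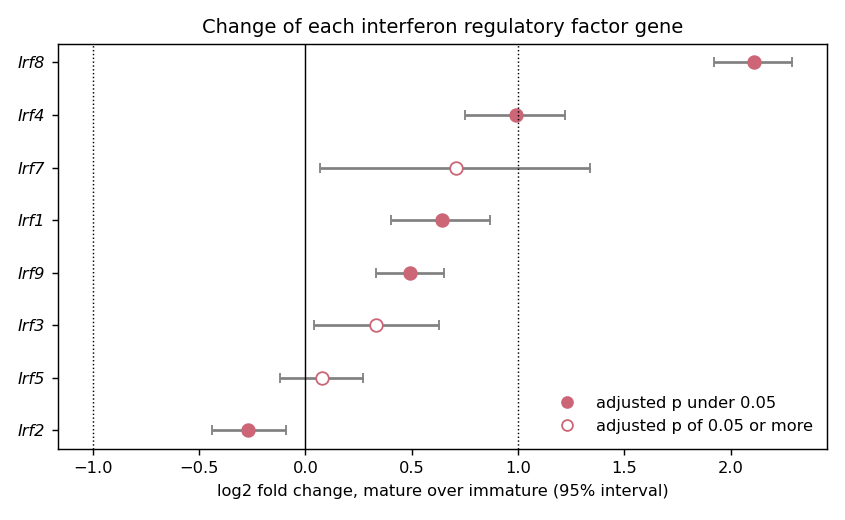
Log2 fold change of each IRF gene, mature over immature BMDCs (x axis), with its 95% interval from edgeR. Filled points have an adjusted p under 0.05 and dotted lines mark the fold criterion of 1. Irf8 lies wholly past the line, the interval of Irf4 spans it, and Irf2 is the gene left of 0.

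Other members share exon bases with neighbours too, and the strand setting of the counting is not given in the sources used here. Irf5 shares 411 exon bases with Tnpo3 on the opposite strand, Irf1 135 with Gm17334, Irf3 88 with Bcl2l12 and Irf7 45 with Phrf1. Irf9 shares 123 exon bases with Rnf31 on the same strand, and Rnf31 rose by a log2 fold change of 0.69 (edgeR adjusted p = 0.000155). The library protocol marks strand with dUTP.

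Levels between members can be compared per length, as FPKM. In immature BMDCs Irf5 led with 105 ± 2.83 FPKM (SD, n = 3), followed by Irf4 with 37.1 ± 1.97 FPKM. Irf2, Irf9, Irf8 and Irf1 came next with means of 15.2, 14.4, 13.5 and 13.3 FPKM, and each overlapped its neighbour in that order. Irf3 with 10.1 FPKM and Irf7 with 2.58 FPKM followed, each below the range of the one before. In mature BMDCs the order was Irf5 with 118 ± 6.29 FPKM (SD, n = 4), Irf4 with 79.5 ± 11.7 FPKM and Irf8 with 62.7 ± 2.09 FPKM. Irf8 had moved past Irf2 and Irf9 to the third place, and its range overlapped that of Irf4 because of mature replicate 3. Irf1 and Irf9, with 22.1 and 21.7 FPKM, overlapped each other, as did Irf2 and Irf3, each with 13.7 FPKM. Irf7 with 4.55 FPKM was last.

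The summed FPKM of the family was 204 to 217 in immature and 324 to 343 in mature libraries. Irf5 held 49.6% of that sum in immature and 35.2% in mature BMDCs. Irf8 went from 6.42% to 18.7% and Irf4 from 17.6% to 23.6%. Shares of a sum are tied to each other, so the lower share of Irf5 stands beside a level that did not pass the test. The FPKM of all genes summed to 381707 in mature replicate 3 and to 327714 to 337706 in the other libraries.

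**Figure D3:**
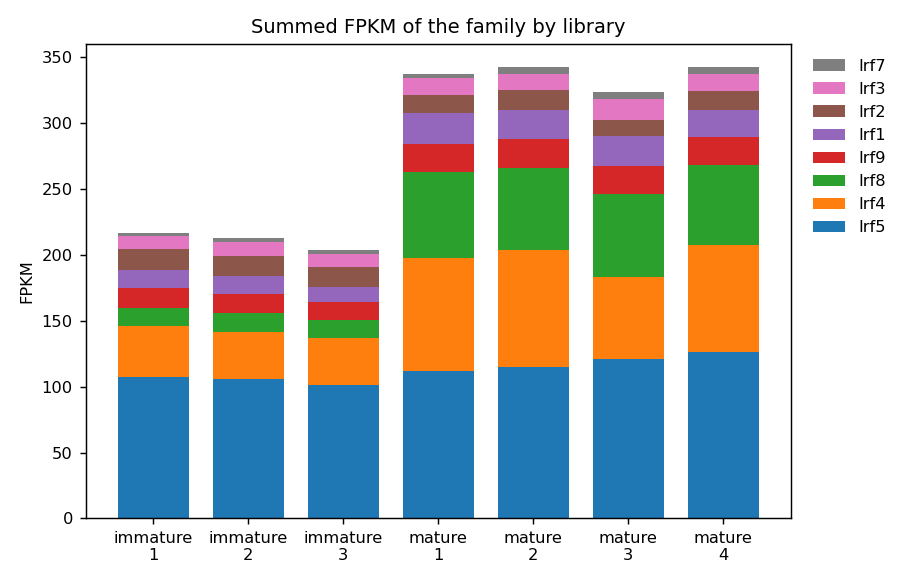
Stacked FPKM (y axis) of the 8 IRF genes in each of the 7 libraries. The sums run from 204 to 217 in immature and from 324 to 343 in mature libraries, and the Irf4 and Irf8 segments grow most.

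Genes that act upstream of IRFs were mostly lower in mature BMDCs. Of 14 adaptors and kinases, 2 rose and 8 fell by the adjusted p (median log2 fold change -0.40, against 0.055 over all genes), and 1 in each direction met both criteria. By the adjusted p 23.2% of all tested genes rose and 22.9% fell. The 14.3% of this list past both criteria did not exceed the 23.1% of all tested genes. Traf6, a ubiquitin ligase of Toll-like receptor signaling, rose from 62.5 to 71.5 CPM when immature to a mean of 149 ± 25.8 CPM (SD, n = 4), with 111 CPM in mature replicate 3 and 157 to 170 CPM in the other mature libraries. Tbkbp1, an adaptor of the kinase Tbk1, went from 53.9 ± 1.54 CPM to 13.2 ± 2.46 CPM. Here and below, ± after a mean CPM is the SD over 3 immature or 4 mature libraries. Myd88, the adaptor through which Irf5 and Irf7 are engaged, fell by 0.92 on the log2 scale (± 0.10 SE, adjusted p = 9.43e-05 in edgeR). Ikbke, a kinase of Irf3 and Irf7, fell by 0.43 (± 0.087 SE, adjusted p = 0.00381 in edgeR).

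DNA-binding partners moved in both directions. Of 11 tested, 3 rose and 3 fell by the adjusted p, with a median log2 fold change of -0.17. Of all tested genes 23.2% rose and 22.9% fell by that measure. Both criteria were met by 18.2% of the list and by 23.1% of all tested genes. Batf3, which sustains Irf8 in type 1 conventional DCs, met both criteria with 55.2 to 59.7 CPM when immature and 120, 123, 227 and 123 CPM in the 4 mature libraries in order. Mature replicate 3 was the highest, and the others too lay above every immature library. Spi1, which encodes PU.1 and recruits Irf4 and Irf8 to composite elements, fell by 0.83 on the log2 scale (± 0.13 SE, adjusted p = 0.000895 in edgeR). Batf fell by 0.99 (± 0.17 SE, adjusted p = 0.00162 in edgeR) and Ikzf1, a lymphoid and myeloid factor, by 1.51 (± 0.14 SE, adjusted p = 4.08e-05 in edgeR). Stat2, the partner of Irf9, rose by 0.57 (± 0.14 SE, adjusted p = 0.0104 in edgeR).

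Among 10 genes whose products bind or modify IRFs, 4 rose and 3 fell by the adjusted p, where 23.2% and 22.9% of all tested genes did. The 4 that rose were Irf2bp1, Peli1, Rnf31 and Usp21, with log2 fold changes of 0.27 to 0.70. The 3 that fell also met both criteria, which is 30.0% of the list against 23.1% of all tested genes. The corepressor genes Irf2bp2 and Irf2bpl had log2 fold changes of -1.18 (edgeR adjusted p = 1.83e-05) and -1.26 (edgeR adjusted p = 8.69e-06). Lyn, a kinase that restrains Irf5, went from 174 ± 9.40 CPM to 68.9 ± 6.81 CPM. The median log2 fold change of this list was 0.14.

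Of 13 interferon genes listed, 4 were in the table and 0 passed the filter on low counts. Ifnb1 was at 0 in 6 libraries and at 3 counts in mature replicate 2. Ifng had 3, 2, 7 and 0 counts in mature replicates 1 to 4 and 0 in each immature library. At this depth no difference in interferon RNA was detectable.

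Of 9 interferon receptors and Janus kinases, 2 rose and 1 fell by both criteria (median log2 fold change 0.21). This was 33.3% of the list, against 23.1% of all tested genes. Ifnlr1, the specific chain of the interferon lambda receptor, had 1.53 to 2.08 CPM in immature and 30.8, 24.3, 20.4 and 20.6 CPM in mature libraries, with no overlap (log2 fold change 3.80 ± 0.21 SE, adjusted p = 1.91e-06 in edgeR). Jak2 went from 552 ± 37.4 CPM to 1568 ± 225 CPM. Ifngr1, the ligand-binding chain of the interferon gamma receptor, went from 158 ± 3.38 CPM to 78.9 ± 4.91 CPM (edgeR adjusted p = 1.11e-05).

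The 26 targets of Stat2 and Irf9 did not move as a block. By the adjusted p 8 rose and 7 fell, by both criteria 2 rose and 3 fell, and the median log2 fold change was 0.22. Of all tested genes 46.1% passed by the adjusted p and 23.1% by both criteria. In this list 19.2% met both. Mx1, an antiviral GTPase, had 56.5 to 59.6 CPM in immature and 421, 355, 309 and 304 CPM in mature libraries (log2 fold change 2.57 ± 0.13 SE, adjusted p = 1.27e-06 in edgeR). Mx2 went with it, from 2.58 ± 0.181 CPM to 13.4 ± 2.31 CPM. Lower were Oas2 (log2 fold change -1.48, edgeR adjusted p = 0.000548), Rtp4 (-1.41, edgeR adjusted p = 0.000276) and the RNA sensor gene Ddx58 (-1.11, edgeR adjusted p = 1.67e-05). Isg15, at 4.75 ± 0.822 CPM and 5.94 ± 0.928 CPM, and Ifit1, at 4.93 ± 0.764 CPM and 7.10 ± 2.14 CPM, did not pass the test. On log2(FPKM + 1) values 3 targets met both criteria.

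Of 17 targets of Irf1, 10 rose and 1 fell by the adjusted p, with a median log2 fold change of 0.61. By the adjusted p 23.2% of all tested genes rose and 22.9% fell. Both criteria were met by 3, all higher, which is 17.6% of the list and does not exceed the 23.1% of all tested genes. Il12b, the p40 chain of IL-12, went from 2.89 ± 0.709 CPM to 21.2 ± 3.70 CPM. Il15 went from 10.4 ± 0.951 CPM to 29.7 ± 3.36 CPM and Gbp5 from 26.7 ± 2.15 CPM to 119 ± 13.0 CPM. The proteasome gene Psmb9 rose by 0.86 on the log2 scale (± 0.16 SE, adjusted p = 0.0025 in edgeR) and Ciita, the master regulator of MHC class II, by 0.68 (± 0.15 SE, adjusted p = 0.00676 in edgeR).

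Of 10 genes that Irf4 targets or acts with, 7 met both criteria, 5 higher and 2 lower, with a median log2 fold change of 1.8. This was 70% of the list, against 23.1% of all tested genes. The list holds genes of DC maturation such as Ccr7 and Cd83 and was chosen with earlier results known. Whether Irf4 acts on these genes here was not tested. Fscn1, which bundles actin in DC protrusions, went from 44.5 ± 3.66 CPM to 776 ± 71.9 CPM. Ccr7, the receptor that guides DCs to lymph nodes, had 200 to 203 CPM in immature and 2310 to 2874 CPM in mature libraries. Ccl22, Cd83 and Il4i1 were the other 3 that were higher. Klf4, a factor of a part of type 2 conventional DCs, and Myc were lower, with log2 fold changes of -2.47 (edgeR adjusted p = 1.01e-05) and -2.37 (edgeR adjusted p = 4.02e-06). Ccl17 had 576 ± 65.4 CPM and 657 ± 226 CPM and missed the threshold.

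The 11 genes of type 1 conventional DCs, which depend on Irf8, did not move as a block. By both criteria 3 rose and 5 fell, with a median log2 fold change of -0.67. This was 72.7% of the list, against 23.1% of all tested genes. Whether Irf8 acts on these genes here was not tested. Lower in mature BMDCs were Clec9a, a receptor for dead cells, Tlr3, Wdfy4, Cd24a and Naaa. Clec9a had 4.28 to 4.45 CPM in immature and 0.637, 0.741, 1.04 and 1.47 CPM in mature libraries, with no overlap (log2 fold change -2.17 ± 0.30 SE, adjusted p = 0.000414 in edgeR). Wdfy4, needed for cross-presentation, went from 201 ± 15.7 CPM to 79.5 ± 14.7 CPM. Higher were Zbtb46, a factor of conventional DCs in general, from 25.6 ± 1.34 CPM to 106 ± 5.32 CPM, Id2, from 238 ± 7.18 CPM to 509 ± 95.2 CPM, and Itgae, which stayed at or below 1.78 CPM. Xcr1, the defining chemokine receptor of type 1 conventional DCs, was at 0.272 to 0.605 CPM in all 7 libraries. On log2(FPKM + 1) values 5 of the list met both criteria.

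**Figure D4:**
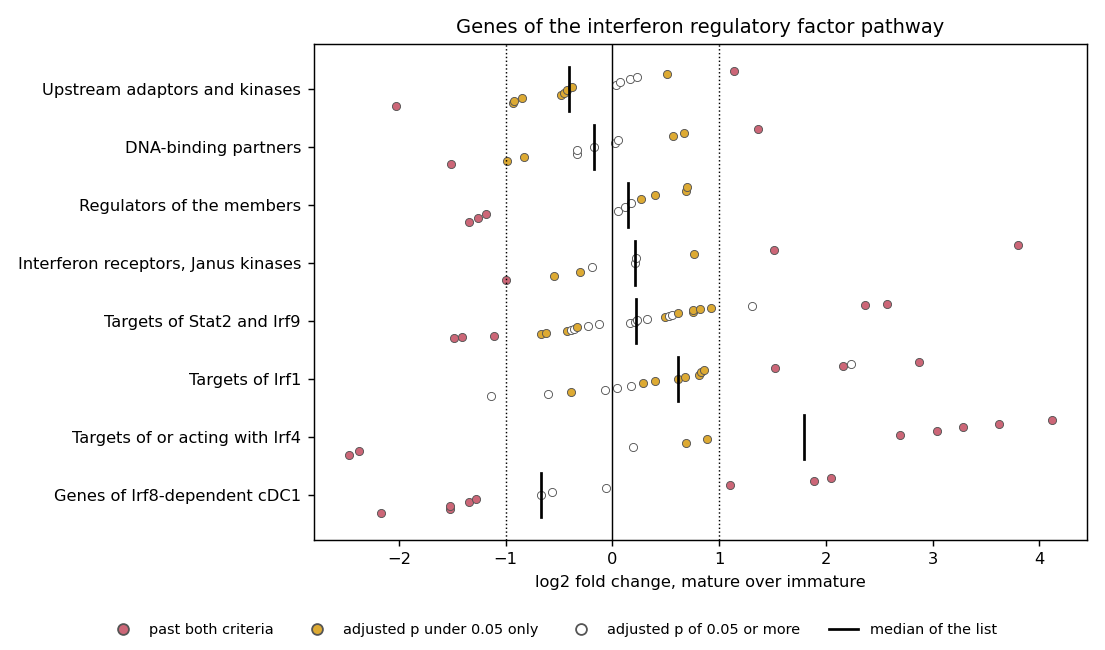
Log2 fold change, mature over immature BMDCs (x axis), of each tested gene in 8 lists of the IRF pathway, with the median of each list as a black bar. Red points met both criteria and yellow points the adjusted p alone. The median lies at 1.8 for genes linked to Irf4 and at -0.67 for genes of type 1 conventional DCs (cDC1), which lie on both sides of 0.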

How the data were processed

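RNA of flow-sorted immature and mature BMDCs was sequenced in 3 and 4 libraries. For each gene the authors deposited raw counts, as whole numbers, and FPKM (fragments per kilobase, scaled to depth) with 2 decimals. The submitters' processing notes name cutadapt 1.9, HISAT2 2.2.1 and StringTie 2.1.6, DESeq2 and edgeR, with no roles. They name build mm9, but 25842 of the 28588 table genes found in GENCODE M21 had the same start, end and strand there, on GRCm38, as had 7 of the 8 members. The coordinates are therefore those of GRCm38.

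The counts were fitted by edgeR 4.0.16 under R 4.3.3 (low-count filter, TMM normalization, quasi-likelihood test on all 7 libraries, p adjusted over all tested genes). CPM are TMM-scaled. A standard error is the log2 fold change divided by the root of F. The alternatives were edgeR with relative log expression size factors, without the filter, with the replicate number as a block and without each library, DESeq2 1.42.0, and limma 3.58.1 on log2(FPKM + 1) or log2(FPKM + 0.1) with a minimum of 1 FPKM in 3 libraries, the former also unfiltered. Omission of mature replicates 1 and 3 together was added after seeing the data. The main edgeR fit, the DESeq2 fit and the filtered limma fit on log2(FPKM + 1) were also run on simulated data. The other alternatives were not. Totals of 54846746 to 67973086 counts per library bear on counting error only. Python 3.11.15, scipy 1.17.1 and matplotlib 3.10.9 were used for permutation tests and figures.

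The members and lists were chosen with earlier results of these data known. Genes are named if they belong to the family, stand on a pathway list, or were among the 3 closest to a member by Pearson correlation of log2 CPM. Some items are not reported here.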

Additional observations from a re-analysis of the deposited data

Results flagged for a closer look

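Of 10 values examined, 2 had a single mature library far from its 3 fellows, and about 0.5 would by chance. For Irf7, mature replicate 1 at 9.67 CPM was apart from 20.2 to 22.2 CPM, and its gap to the nearest library was 0.839 of the range. For Irf9, mature replicate 3 at 128 CPM was apart from 122 to 123 CPM, with a gap of 0.870 of the range, and all 4 libraries stayed above the immature ones.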

How the results depend on the processing

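Each member kept the direction of its change in every alternative in which it was tested. The adjusted p of Irf2 was above 0.05 with limma, at log2 fold changes of -0.16 (pseudocount 0.1), -0.15 (pseudocount 1) and -0.15 (unfiltered). Without single libraries its log2 fold change ranged from -0.29 to -0.20. Irf3 gained an adjusted p under 0.05 with DESeq2 and with relative log expression, at a log2 fold change of 0.36 each. It also did so with limma (0.43 with a pseudocount of 0.1, 0.40 with 1, filtered or not) and without mature replicates 1 and 3 (0.23). Without single libraries its log2 fold change ranged from 0.23 to 0.40. Irf7 gained an adjusted p under 0.05 with DESeq2, at a log2 fold change of 0.73. It also did so with filtered limma (0.74 with a pseudocount of 0.1, 0.60 with 1) and without mature replicates 1 and 3 (0.90). Without single libraries its log2 fold change ranged from 0.59 to 0.92. Apart from the omission of single libraries, the cause was not tested. Since Irf4 lies at the fold criterion, 2 members in place of 1 met both criteria with DESeq2, relative log expression, no filter, each limma fit and without mature replicates 1 and 3, and 1 to 2 without single libraries. Over all genes, 2561, 1768 and 1716 met both criteria with limma (pseudocount 0.1, pseudocount 1, unfiltered), against 4037. The median change of all genes was 0.13 higher with DESeq2 and 0.12 higher without a filter, both on 27808 genes.

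Groups share replicate numbers, but the deviations of same-numbered libraries correlated at only -0.00114 to 0.0285, so the numbers were not taken as pairs. With the replicate block 3616 genes met both criteria, the log2 fold change of Irf2 was -0.28 (edgeR adjusted p = 0.101), and no other call on a member changed. The block gave a mean log2 ratio difference for Irf4 to Irf8 of -1.16, where the exact permutation test on 3 pairs gives p = 0.25, the smallest it can give.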

Other observations

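The genes closest to other members across the 7 libraries are given as a description. A difference between the groups that both genes share adds to a correlation, and its part was not computed. For Irf8 they were Apobec3 (Pearson r = 0.9998), Zfand6 and Samsn1 (0.9997 each), and 1032 of 8967 genes had an r above 0.95. For Irf4 they were Specc1l (0.9995), Stat3 and Jak2 (0.9993 each). For Irf1 they were Pcgf2 (0.9966), Trim11 (0.9930) and Dtx3 (0.9918). For Irf3 they were the ribosomal protein genes Rpl6 (0.9984) and Rpl4 (0.9967) and Praf2 (0.9963). For Irf9 they were Eif4a2 (0.9985), Ppm1j and Haao (0.9979 each). Irf5 had 5 genes with an r above 0.95, led by Rusc1 (0.9943), Herpud1 (0.9774) and Tmem143 (0.9684). The group difference was small here, with log2 fold changes of 0.08 for Irf5 and of 0.19, 0.06 and 0.11 for these genes in that order.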
